A study of Homo sapiens with 10 samples.

Results

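The integrin subunits outside the laminin-binding group comprised 10 genes, taken by name as every probe annotated to ITGA1, ITGA2, ITGA4, ITGA5, ITGA9, ITGA10, ITGAV, ITGB3, ITGB5 or ITGB8. Each gene had 1 probe, so the set held 10 probes of the 24105 analysed and 10 of the 16372 named genes. The rule used no measured value, though the members were chosen with earlier results of these data known. RNA levels had been measured on 10 Illumina bead arrays in MDA-MB-435, a human melanoma cell line, with 2 arrays for each of 5 groups. The groups were untreated cells, cells exposed to hepatocyte growth factor (HGF, the ligand of the MET receptor), with exposures of 1 h, 6 h and 24 h, and cells stably transduced to express integrin beta4 (ITGB4). The parental line and standard growth conditions were shared by all groups. The untreated arrays carry no time in their labels, and no untreated cells were matched to each HGF time. Time of HGF exposure and time in culture therefore cannot be told apart in differences between groups. The labels give neither the HGF dose nor the vector, promoter or clonal state of the transduced cells. Beyond treatment and replicate number they say nothing of separate cultures, though the design text speaks of biological duplicates, so p-values measure the spread between these samples.

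Integrins are cell-surface receptors made of an alpha and a beta chain. The extracellular part holds matrix proteins or counter-receptors, and the short cytoplasmic tails recruit adaptor proteins that connect to actin and to signalling kinases. Alpha1, alpha2 and alpha10 pair with beta1 and bind collagens, alpha4 and alpha9 bind VCAM1 and related ligands, alpha5 with beta1 is the classical fibronectin receptor, and alphaV pairs with several beta chains, among them beta3, beta5 and beta8, to bind proteins that carry the arginine-glycine-aspartate sequence. In melanocytic cells integrins of these classes are known for adhesion to dermal matrix and for migration.

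ITGB8 and ITGA9 moved in opposite directions at 6 h of HGF and had turned back at 24 h. Relative to 1 h, ITGB8, the beta chain of the receptor that activates latent TGF-beta, was 1.89-fold higher at 6 h, and ITGA9, the alpha chain of the tenascin and VCAM1 receptor, was 1.63-fold lower. From 6 h to 24 h ITGA9 rose 1.93-fold, ITGB8 fell 1.71-fold, and ITGB5, a vitronectin-receptor beta chain, rose 1.55-fold. Of these calls between HGF times, only the ITGA9 rise from 6 h to 24 h held without any single array. The ITGB5 call sat at the threshold (limma, adjusted p = 0.0465) and was lost when almost any single array was left out. Against untreated cells 0 of the 7 subunits that could be tested passed the test at any time or in ITGB4 cells. ITGA9 at 6 h missed it narrowly. It passed when the 2 kinds of array described in the next paragraph, a division made from the data, were a block in the fit. That block also raised the calls over all probes from 267 to 1066. ITGA9 did not pass when either untreated array or either 6 h array was left out. The other 3, ITGA4, ITGA10 and ITGB3, were not detected on any array.

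Detection is given by the scanner as a score from 0 to 1 that rises with the distance of a probe from the negative controls, and 0.99 or more counted as detected. Single arrays detected 42.4% to 49.4% of the probes, and each probe was read from 26 to 32 beads (range of array medians). The transduced gene was checked first. The ITGB4 probe was detected only in ITGB4 cells (6528.1 and 4700.9), and elsewhere it read 51.1 to 68.1. Replicate 1 of every group except ITGB4 made up 4 arrays with detection scores closer to 0 at their 25th percentile (0.00814 to 0.0225) than the remaining 6 (0.249 to 0.388). They are termed low-score arrays here and the 6 high-score arrays. The division came from the data, and differences inside each kind stand beside the called results. Of 12 melanocyte-lineage markers with a probe, 10 were detected on all arrays, among them MITF, SOX10, MLANA, TYR and PMEL. Of the other cell types' markers, CDH1, CLDN7, EPCAM and KRT19 (epithelial), COL1A1, COL3A1, PDGFRA and PDGFRB (fibroblast), CD14, CD3E and ITGB2 (leukocyte) and CDH5 and TEK (endothelial) were detected on none. In the same lists KRT14 and KRT18, DCN and LUM, CD68 and LCP1, and KDR were detected on all arrays.

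Of the 10 subunits, 4 were detected on all 10 arrays: ITGA5, ITGA9, ITGB5 and ITGB8. ITGA2 was detected on 9, ITGAV on 7 and ITGA1 on 5, and these 7 entered the test. In the whole integrin family 23 genes had a probe, 7 were detected on all arrays, 5 on some and 11 on none. ITGB1, the common partner of the collagen-binding, alpha4, alpha5 and alpha9 chains, was among the 7, with scanner signals of 2787.1 to 5051.4 on its probe GI_19743812-I. Signals of different probes depend on the probe as well as on the RNA, so the levels of different subunits were not set against each other.

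None of the collagen-binding subunits passed the test in any comparison, and ITGA10 could not be tested. ITGA1, the alpha chain of a receptor for collagen IV, was near the detection limit: its probe (GI_31657141-S) gave scanner signals of 90.5 and 87.9 in untreated cells, 78.9 and 70.9 at 1 h, 122.0 and 72.3 at 6 h, 104.3 and 70.9 at 24 h, and 111.4 and 86.3 in ITGB4 cells. It was detected on replicate 1 of each HGF group, all low-score arrays, and on both ITGB4 arrays, and on neither untreated array. Untreated replicate 1 fell just short of detection, with a score of 0.9898. Its normalised signal was 90.6 there against 91.25 on 1 h replicate 1, where it was detected. The HGF values overlapped with the untreated ones at 6 h and 24 h. The ITGB4 arrays overlapped with the untreated ones too, and the log2 difference was 0.25 ± 0.27 (SE, 95% interval -0.34 to 0.85, limma, adjusted p = 1). Because the probe was not well above background in untreated cells, that level is only bounded there, and the mean of the ITGB4 arrays was at least 1.15-fold the bound, a size within the spread of the arrays.

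ITGA2, the alpha chain of the main collagen I receptor, gave scanner signals of 120.2 and 126.0 in untreated cells on its probe (GI_6006008-S), 78.5 and 107.6 at 1 h, 127.1 and 129.4 at 6 h, 101.1 and 99.1 at 24 h, and 126.2 and 102.8 in ITGB4 cells. The 1 h and 24 h arrays lay below the untreated arrays, and the ITGB4 arrays overlapped with them. These 1 h and 24 h signals were near the detection limit, and ITGA2 was not detected on 24 h replicate 2. After normalisation the log2 differences from untreated cells were -0.30 ± 0.16 (SE, adjusted p = 0.457) at 1 h, 0.01 at 6 h and -0.25 at 24 h, and none passed the test. ITGA10, a cartilage collagen receptor chain (GI_6006007-S), read 46.5 to 64.5 and was detected on 0 of 10 arrays, with a highest score of 0.354.

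ITGA4, the alpha chain of the receptor for VCAM1 and fibronectin on leukocytes and many melanomas, was likewise not detected. Its probe (GI_6006032-S) read 36.5 to 54.1 on the 10 arrays, with a highest score of 0.0569. The closely related ITGA9 was detected throughout. A single probe cannot tell a low transcript from a probe that hybridises poorly, so these readings bound nothing about alpha4 on the cell surface.

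ITGA9 (GI_11321594-S) gave scanner signals of 175.5 and 229.7 in untreated cells, 170.1 and 187.2 at 1 h, 121.9 and 126.7 at 6 h, 210.3 and 231.8 at 24 h, and 169.6 and 196.8 in ITGB4 cells. The 6 h arrays were the lowest of the 10. The 24 h and untreated arrays overlapped on the scanner scale, and after normalisation the 24 h arrays (206 and 240) lay above the untreated ones (176 and 199), a log2 difference of 0.25 that did not pass (adjusted p = 0.886). On the normalised log2 scale the group levels were 7.55 ± 0.13 (SD, n = 2) in untreated cells, 7.55 ± 0.06 at 1 h, 6.85 ± 0.11 at 6 h, 7.80 ± 0.15 at 24 h and 7.58 ± 0.18 in ITGB4 cells. In bulk RNA fewer expressing cells and less RNA per cell cannot be told apart.

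From 1 h to 6 h ITGA9 fell by 0.71 on the log2 scale (SE 0.17, limma, adjusted p = 0.0315), and both 6 h arrays were below both 1 h arrays. The difference was -0.83 on the low-score and -0.59 on the high-score arrays. Leaving out any 1 of the 4 arrays of this comparison ended the call, with differences of -0.66 and -0.75 without 1 h replicate 1 or 2 and -0.64 and -0.79 without 6 h replicate 1 or 2 (adjusted p = 0.298, 0.064, 0.2 and 0.115). From 6 h to 24 h ITGA9 rose by 0.95 ± 0.17 (SE, 95% interval 0.59 to 1.31, adjusted p = 0.00495), by 0.92 on the low-score and 0.98 on the high-score arrays, and this call held without any single array, at adjusted p of 0.0403 or less. Against untreated cells the 6 h difference was -0.70 (95% interval -1.06 to -0.34, adjusted p = 0.0513), which did not pass. It was almost equal within both kinds of array, at -0.69 and -0.72, and with low-score and high-score arrays as a block in the fit it passed (adjusted p = 0.0107). The same block raised the calls over all probes from 267 to 1066. Without that block ITGA9 ranked 270 by p in a comparison with 267 calls. ITGA9 passed when 24 h replicate 1 or 2 was left out of the fit, and not when any other single array was. The difference was -0.79 and -0.60 without untreated replicate 1 or 2, and -0.63 and -0.79 without 6 h replicate 1 or 2. It did not pass with only the 2 groups in the fit (limma, adjusted p = 0.0913) or with a pooled variance without moderation (adjusted p = 0.135).

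ITGA5, the fibronectin receptor alpha chain, gave scanner signals (GI_4504750-S) of 100.7 and 115.8 in untreated cells, 138.1 and 130.5 at 1 h, 123.7 and 142.1 at 6 h, 115.4 and 152.4 at 24 h, and 121.6 and 119.1 in ITGB4 cells. All 6 HGF arrays lay above the untreated arrays after normalisation, at 111.5 to 158.5 against 101.4 and 108.2, and so did the ITGB4 arrays, at 130.6 and 125.8 (log2 difference 0.29, adjusted p = 1). The log2 differences of 0.42 at 1 h, 0.24 at 6 h and 0.35 at 24 h (SE 0.19) did not pass the test (adjusted p = 0.356, 0.628 and 0.857), and these 3 comparisons share the same untreated arrays. At 1 h the difference was 0.64 on the low-score arrays and 0.20 on the high-score arrays.

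ITGAV, the alpha chain shared by the beta3, beta5 and beta8 receptors, was near the detection limit (GI_4504762-S). It read 115.6 and 117.8 in untreated cells, 84.5 and 99.3 at 1 h, 81.8 and 103.4 at 6 h, 94.0 and 94.5 at 24 h, and 74.5 and 95.4 in ITGB4 cells. Every treated or transduced array was below both untreated arrays, and replicate 1 at 6 h, replicate 2 at 24 h and ITGB4 replicate 1 were not detected. The log2 differences ran from -0.38 at 6 h (adjusted p = 0.291) to -0.23 at 1 h (adjusted p = 0.6), and none passed. The 4 differences rest on the same 2 untreated arrays and are not independent of each other.

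Among the beta chains that pair with alphaV, ITGB3 was detected on 0 of 10 arrays. This chain forms the vitronectin receptor known from invasive melanoma and platelets. Its probe (GI_4557676-S) read 52.4 to 84.1, with a highest score of 0.906 on 6 h replicate 2, and it was left out of the test.

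ITGB5 was detected on every array. To place the gene, the 250 bases before its annotated start (RefSeq, GRCh38.p14, chr3:124901419-124901668, minus strand) are shown. ITGB5 serves as an example of a subunit with a called difference, though that call sat at the threshold. Windows before other annotated ITGB5 starts are not shown. Capitals mark GGGCGG and its reverse complement CCGCCC, the core of the GC box, searched on both strands.
ITGB5: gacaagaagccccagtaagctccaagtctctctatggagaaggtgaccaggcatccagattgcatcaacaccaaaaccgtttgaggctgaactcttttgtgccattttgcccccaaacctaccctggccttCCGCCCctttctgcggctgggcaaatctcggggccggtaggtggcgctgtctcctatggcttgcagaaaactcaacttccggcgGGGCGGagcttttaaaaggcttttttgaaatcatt
The motif is in 42.6% of all 35116 such windows of the table. Of the 8 subunits with a window in the table, 4 held it in at least 1 window, namely ITGA2, ITGA5, ITGB5 and ITGB8. This count is by gene, and ITGB5 and ITGAV have more than 1 window, so it is not set against the share of windows. ITGA9 and ITGB3 had no window there. No promoter activity was measured here, and a match is a description of letters only.

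The ITGB5 probe (GI_34147573-S) gave scanner signals of 1170.9 and 1725.8 in untreated cells, 1227.8 and 1273.3 at 1 h, 1007.7 and 1171.2 at 6 h, 1526.3 and 1796.8 at 24 h, and 1739.2 and 1973.6 in ITGB4 cells. The lowest array was 6 h replicate 1 and the highest ITGB4 replicate 2, both 24 h arrays lay above both 6 h arrays, and the 2 untreated arrays were far apart. ITGB5 rose from 6 h to 24 h by 0.63 ± 0.18 on the log2 scale (SE, 95% interval 0.24 to 1.01, limma, adjusted p = 0.0465), by 0.64 on the low-score and 0.62 on the high-score arrays. This call sat at the threshold and was lost without 9 of the 10 arrays taken singly, with adjusted p of 0.0512 and 0.0513 without untreated replicate 1 or 2, 0.0632 and 0.0644 without 1 h replicate 1 or 2, 0.302 and 0.0878 without 6 h replicate 1 or 2, 0.217 without 24 h replicate 2, and 0.0647 and 0.0658 without ITGB4 replicate 1 or 2. It held without 24 h replicate 1 (0.77, adjusted p = 0.0434).

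Against untreated cells ITGB5 differed by -0.14 at 1 h, -0.34 at 6 h and 0.28 at 24 h on the log2 scale, and none passed (adjusted p = 0.808, 0.379 and 0.881). In ITGB4 cells the ITGB5 difference was 0.54 (95% interval 0.16 to 0.93), with both ITGB4 arrays above both untreated arrays. Its unadjusted p of 0.0094 was the 15th smallest of the comparison, and the adjusted p was 1. On the high-score arrays alone the difference was 0.40.

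ITGB8 (GI_4504778-S) gave scanner signals of 150.7 and 142.9 in untreated cells, 84.6 and 117.8 at 1 h, 197.5 and 210.2 at 6 h, 129.1 and 105.9 at 24 h, and 121.2 and 107.7 in ITGB4 cells. The 6 h arrays were the highest of the 10, and the 1 h and 24 h values lay below the untreated ones on the scanner scale. The normalised log2 levels were 7.13 ± 0.17 (SD, n = 2) in untreated cells, 6.71 ± 0.14 at 1 h, 7.63 ± 0.13 at 6 h, 6.86 ± 0.23 at 24 h and 6.92 ± 0.14 in ITGB4 cells.

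From 1 h to 6 h ITGB8 rose by 0.92 ± 0.18 on the log2 scale (SE, 95% interval 0.541 to 1.303, limma, adjusted p = 0.0143), by 0.93 on the low-score and 0.92 on the high-score arrays. It then fell from 6 h to 24 h by 0.77 (95% interval -1.15 to -0.39, adjusted p = 0.0173), with -0.52 on the low-score and -1.02 on the high-score arrays. The rise was not called without 1 h replicate 1 (0.82, adjusted p = 0.226), 6 h replicate 1 (1.03, adjusted p = 0.065) or 6 h replicate 2 (0.84, adjusted p = 0.112). The fall was not called without 6 h replicate 1 (-0.87, adjusted p = 0.0515), 6 h replicate 2 (-0.69, adjusted p = 0.136) or 24 h replicate 2 (-0.62, adjusted p = 0.104). Against untreated cells the differences were -0.41 at 1 h, 0.51 at 6 h (95% interval 0.13 to 0.89), -0.27 at 24 h and -0.21 in ITGB4 cells, and none passed (adjusted p = 0.328, 0.164, 0.886 and 1).

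**Figure D1:**
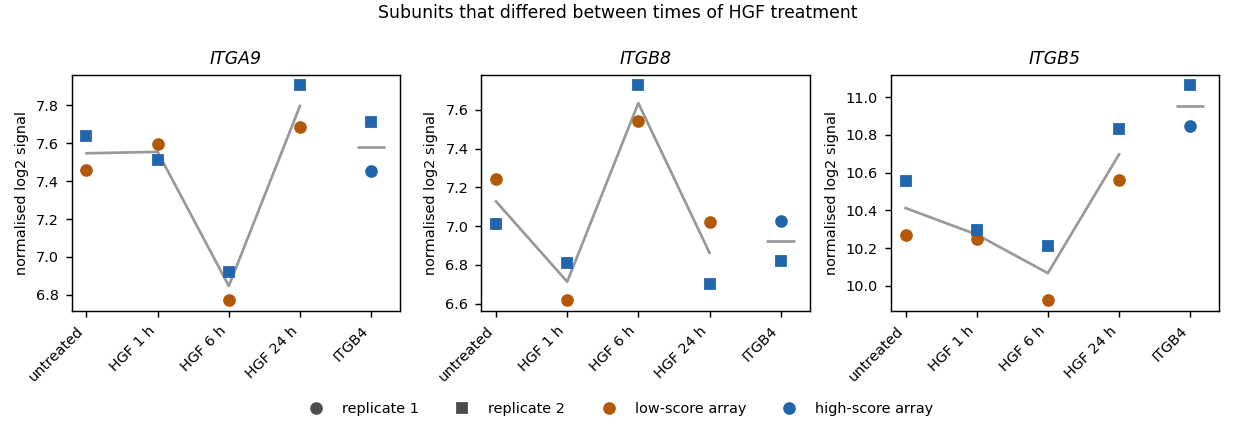
Normalised log2 signal of ITGA9, ITGB8 and ITGB5 in untreated cells, at 1 h, 6 h and 24 h of HGF and in ITGB4 cells. Circles are replicate 1, squares replicate 2 and grey lines join the group means. ITGA9 drops to 6.85 and ITGB8 reaches 7.63 at 6 h, and ITGB5 is at 10.07 at 6 h and 10.70 at 24 h.

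The summed normalised signal of the melanocyte-lineage markers was 18823 and 19889 on the 6 h arrays, against 25364 and 28557 in untreated cells, 22796 and 25031 at 1 h, 21796 and 24864 at 24 h and 23432 and 23640 in ITGB4 cells. The sum was lowest at 6 h, but not each marker was, since MC1R, named after its values were seen, differed from untreated cells by 0.48 on the log2 scale (adjusted p = 0.188). The sum weighs bright probes most, and the brightest, TYRP1, differed by -0.66 (limma, adjusted p = 0.0567). EDNRB and S100A1 differed by only 0.0065 and 0.00045. These genes too are named after their values were seen. Of the 12 tested, 1 was lower at 6 h than in untreated cells (0.935% of all probes), and 11 did not pass. The 1 was MITF, the master transcription factor of the lineage (log2 -1.06, adjusted p = 0.0361), read on the brightest of its 3 tested probes. The summed fibroblast markers were 966.92 and 1055.2 at 6 h, close to the 1051.5 and 1142.1 at 1 h and the 1066.8 and 1179.2 at 24 h, against 1344.5 and 1417.5 in untreated cells and 1223.3 and 1361.7 in ITGB4 cells, with 0 of 4 tested called at 6 h. The other sums did not fall at 6 h. The epithelial sum was 1248.7 and 1316.1 at 6 h against 1094.3 and 1097.4 in untreated cells. The endothelial sum was 466.31 and 489.04 against 448.01 and 457.03. The leukocyte sum, 4800 and 5187.3, overlapped with the untreated 4350.7 and 5392.2. The part of these marker shifts in the 6 h values of ITGA9, ITGB5 and ITGB8 was not tested.

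Comparison by comparison, the counts for the 7 tested subunits were set beside those for all 14018 tested probes. At 1 h against untreated cells 0 of 7 were called at an adjusted p under 0.05, where 0% of all probes were, and 2 had an unadjusted p under 0.05 (ITGA5 and ITGB8, 13.5% of all probes). At 6 h 0 of 7 were called beside 1.9% of all probes, and 3 passed unadjusted (ITGA9, ITGB8 and ITGAV, 16% of all). At 24 h 0 of 7 were called beside 0% of all probes, and 0 passed unadjusted (5.71% of all). In ITGB4 cells 0 of 7 were called beside 0.00713% of all probes, which is the ITGB4 probe itself, and 1 passed unadjusted (ITGB5, 0.835% of all).

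Between HGF times, subunits were called in the 2 comparisons that use the 6 h arrays. From 1 h to 6 h 2 of 7 were called at an adjusted p under 0.05, beside 4.67% of all probes, 1 higher (ITGB8, 2.24% of all probes) and 1 lower (ITGA9, 2.43%), and the same 2 passed unadjusted (20.5% of all). Comparing 24 h with 6 h, 3 of 7 were called, beside 8.31% of all probes, 2 higher (ITGA9 and ITGB5, 4.24% of all) and 1 lower (ITGB8, 4.07%), and the same 3 passed unadjusted (21.3% of all). Between 1 h and 24 h 0 of 7 were called beside 0% of all probes, and 1 passed unadjusted (ITGB5, log2 0.43, adjusted p = 0.708, 6.33% of all). The median log2 difference of the 7 was -0.15 at 6 h against 1 h, beside -0.01 for all probes, and 0.11 at 24 h against 6 h, beside -0.0049. With 7 genes these shares describe this set, and the 2 comparisons share the 6 h arrays.

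Groups whose arrays did not overlap were common in these duplicates. At 1 h against untreated cells 4 of the 7 subunits did not overlap, beside 44.2% of all probes, with 1 above (24.1% of all) and 3 below (20.1%). At 6 h 5 of 7 did not, beside 44.6%, with 2 above (20.7%) and 3 below (23.9%). At 24 h 5 of 7 did not, beside 29.6%, with 3 above (14.9%) and 2 below (14.7%). In ITGB4 cells 3 of 7 did not, beside 25.7%, with 2 above (13.6%) and 1 below (12.1%). Between times the counts were 4 of 7 for 6 h against 1 h, beside 48.5% (2 above, 22.7%, and 2 below, 25.9%), and 4 of 7 for 24 h against 6 h, beside 42.8% (2 above, 22.5%, and 2 below, 20.3%). For 24 h against 1 h they were 2 of 7, beside 25.5% (2 above, 11.2%, and 0 below, 14.4%).

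**Figure D2:**
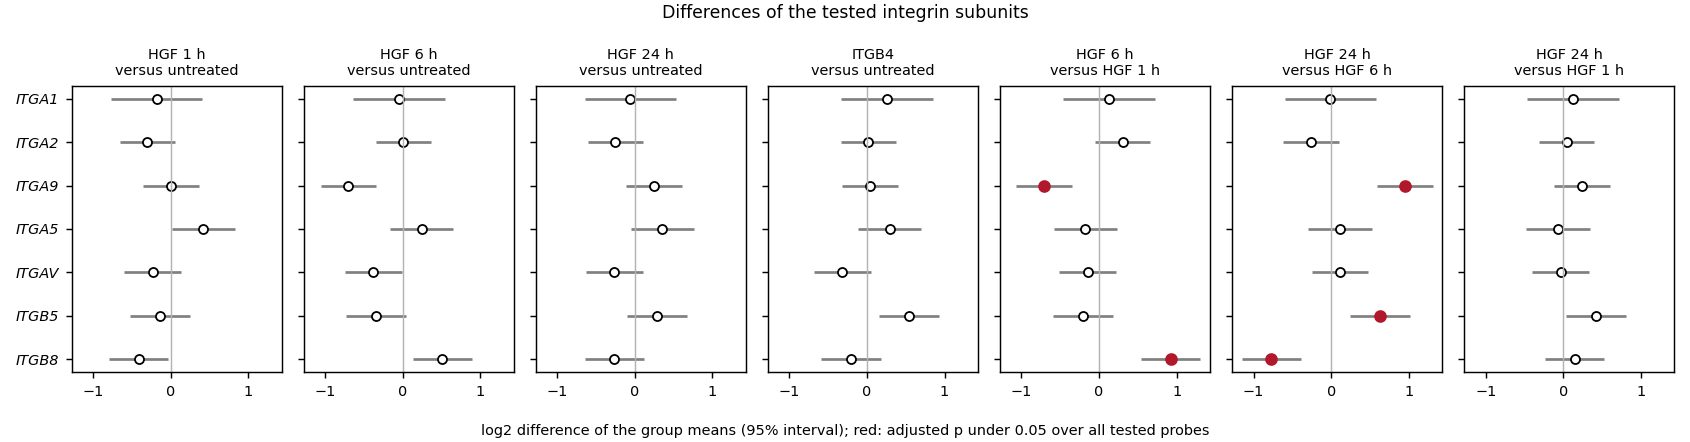
Log2 difference with its 95% interval for each of the 7 tested subunits, 1 panel per comparison, with the called ones in red. All 5 red points are in the comparisons of 6 h with 1 h (ITGA9 and ITGB8) and of 24 h with 6 h (ITGA9, ITGB5 and ITGB8).

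The partners and ligands of these receptors were described from 4 gene lists, each gene by 1 probe. Of the rest of the integrin family, 13 of 16 genes had a probe and 5 were tested (ITGA3, ITGA7, ITGAE, ITGB1 and ITGB4). ITGB4 was higher in ITGB4 cells, and ITGA3, ITGA7, ITGAE and ITGB1 did not pass in any comparison. ITGB4 entered the test only through the ITGB4 arrays and was not detected on the others, so its HGF comparisons say nothing about HGF. ITGB1 differed from untreated cells by -0.52 at 1 h (adjusted p = 0.287), -0.14 at 6 h (adjusted p = 0.842) and 0.08 in ITGB4 cells (adjusted p = 1). It is named after its values were seen, as are the genes of the next 2 paragraphs other than COL4A5.

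Of 33 matrix and cell-surface ligands 13 were tested. Against untreated cells 1 of 13 was lower at 6 h (0.935% of all probes) and 0 were called at 1 h, at 24 h or in ITGB4 cells. The 1 was COL4A5, a basement membrane collagen chain, whose normalised signals were 373 and 252 in untreated cells, 237 and 191 at 1 h, 156 and 121 at 6 h, and 353 and 228 at 24 h. At 6 h it was log2 -1.16 ± 0.25 (SE, adjusted p = 0.0331) below untreated cells, and from 6 h to 24 h it rose by 1.05 (adjusted p = 0.0202). COL4A5 was the 1 of 13 higher from 6 h to 24 h (4.24% of all probes). THBS1 and THBS2, thrombospondins of the matrix, ran the other way, as 2 of 13 higher from 1 h to 6 h (2.24% of all) and 2 of 13 lower from 6 h to 24 h (4.07% of all). THBS1 was higher at 6 h than at 1 h by 0.92 (adjusted p = 0.0489) and lower at 24 h than at 6 h by log2 -1.06 (adjusted p = 0.0179). THBS2 was higher by 0.98 (adjusted p = 0.0466) and then lower by log2 -1.23 (adjusted p = 0.0105). The remaining 11 of 13 did not pass between 1 h and 6 h, nor the remaining 10 between 6 h and 24 h.

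Of 47 adaptors and kinases at the cytoplasmic tail 40 were tested, and 0 were called in any comparison with untreated cells. From 1 h to 6 h 1 of 40 was lower (2.43% of all probes), TNS2, a tensin that binds beta tails (log2 -0.71, adjusted p = 0.0258). TNS2 was not detected on 6 h replicate 1 (normalised signal 92.9) and read 105 on 6 h replicate 2. Its 6 h level, which also enters the 24 h comparison, thus lay near the detection limit. Comparing 24 h with 6 h, 4 of 40 were higher (4.24% of all probes) and 2 lower (4.07%). The higher ones were TNS2 (0.64, adjusted p = 0.0251), the Src-family kinase FYN (0.94, adjusted p = 0.0168), ILK, the pseudokinase that links beta tails to parvins (0.69, adjusted p = 0.0356), and NUMB, an endocytic adaptor (0.71, adjusted p = 0.018). The lower ones were ACTN1, an actin crosslinker (-0.65, adjusted p = 0.0372), and LPXN, a paxillin relative (-0.60, adjusted p = 0.0365). FYN rests on 1 of its 3 tested probes, and the other probes gave 0.31 and 0.33 without a call. Of 15 tested membrane partners 1 was lower from 6 h to 24 h (4.07% of all probes), PLAUR, the urokinase receptor (-0.58, adjusted p = 0.045), and 0 were called in the other comparisons. The median log2 differences of the 4 lists, in the order given, were 0.01, 0.14, -0.07 and 0.06 at 6 h against untreated cells, beside 0.01 for all probes. The list calls depended on single arrays. At 6 h against untreated cells 0 list probes, COL4A5 included, were called without either untreated array, either 1 h array, either 6 h array or either ITGB4 array, and 6 and 5 were called without 24 h replicate 1 or 2. With 1 array left out the counts over all list probes ran from 0 to 6 for 6 h against 1 h, with 0 without 1 h replicate 1, 6 h replicate 1 or 6 h replicate 2, and from 1 to 9 for 24 h against 6 h, with 2, 1 and 2 without 6 h replicate 1, 6 h replicate 2 and 24 h replicate 1.

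**Figure D3:**
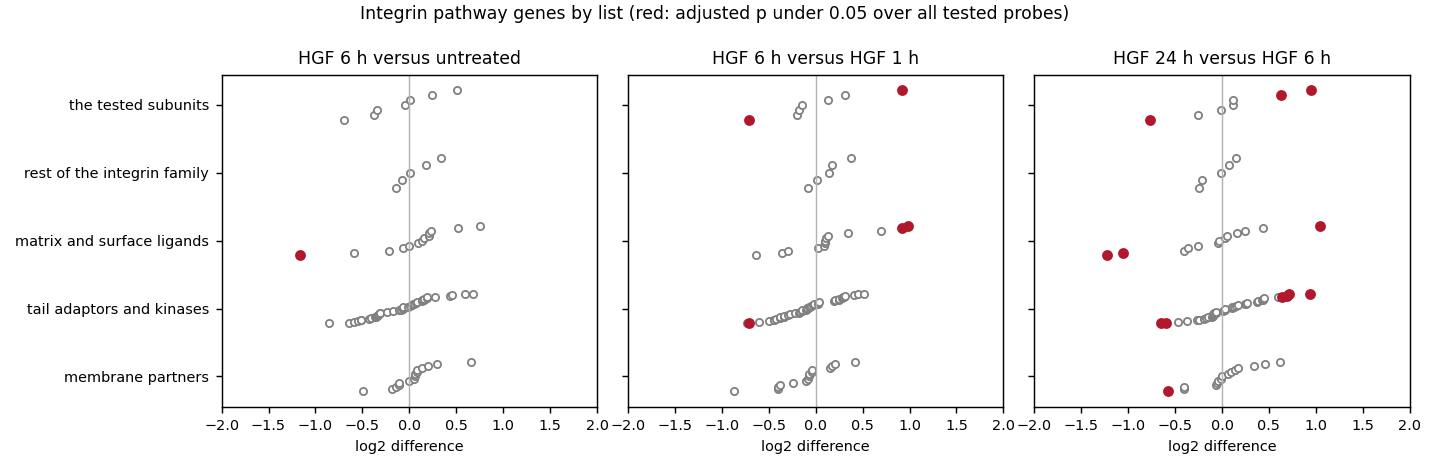
Log2 differences of the tested subunits and of the 4 lists (1 point per gene, called genes in red) for 6 h against untreated cells, 6 h against 1 h and 24 h against 6 h. Red points in the lists are 1 ligand in the first comparison, 2 ligands and 1 adaptor in the second, and 3 ligands, 6 adaptors and 1 membrane partner in the third.

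Over the 10 arrays ITGA9 and ITGB8 ran against each other (Pearson r = -0.87), ITGA9 and ITGB5 together (0.73), and ITGB5 and ITGB8 apart (-0.55). ITGA2, which was not called, ran with ITGB8 (0.67), against ITGA9 (-0.50) and not with ITGB5 (-0.01). These are descriptions over arrays that share groups and normalisation. Among 7777 named probes detected on all arrays, the genes closest to ITGA9 in pattern were FZD2, a Wnt receptor (r = 0.98), and UBALD2 (0.98). Those closest to ITGB8 were NOL11, a ribosome biogenesis factor (0.97), and SRSF10, a splicing factor (0.97). For ITGB5 they were DHRS4L2 (0.95) and OSBPL5, an oxysterol-binding protein relative (0.95).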

How the data were processed

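Total RNA had been hybridised to Illumina Human 8-V1 arrays. The authors deposited 1 scanner table per array with the intensity of each probe, neither background subtracted nor normalised, a detection score as a fraction from 0 to 1, and a bead count. BeadStudio 1.5.1.3 is named in the submitters' processing notes. The genome build is not given in the sources used here. A deposited value table of background-subtracted, rank-invariant normalised intensities served as an alternative. It was a straight line of the scanner values in 9 of 10 columns and not for ITGB4 replicate 2 (Spearman 0.968), so ITGB4 values rest on the scanner version.

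Probe genes came from GEO's platform annotation, updated through Entrez numbers in the RefSeq table. Of 24136 probes, 22 controls and 9 with a missing intensity were set aside. Intensities were quantile normalised and log2 transformed with no offset. Probes with a detection score of 0.99 or more on at least 1 array (14018, 58.2%) entered limma 3.58.1 (R 4.3.3), which fitted 5 group means over 10 arrays and gave 7 two-sided contrasts. A probe with an adjusted p (Benjamini-Hochberg, all 14018 probes) under 0.05 was called. The spread had 5 residual and 8.16 prior degrees of freedom, so the number of arrays limits the precision.

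The genes named were all members, ITGB4, up to 4 called genes per list and direction against untreated cells, and the 2 genes nearest in pattern to each member detected on all arrays. Those of ITGA5 are not reported here. List genes called only between times were named after their values were seen. Members and lists were chosen with earlier results of these data known. Alternatives covered background correction, normalisation, detection filter, floor, blocks, test, value source and left-out arrays.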

Additional observations from a re-analysis of the deposited data

Results flagged for a closer look

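Differences between HGF times were tested directly and passed for 3 subunits, which singles out 5 results. From 1 h to 6 h the log2 difference was -0.71 for ITGA9 and 0.92 for ITGB8. From 6 h to 24 h it was 0.95 for ITGA9, 0.63 for ITGB5 and -0.77 for ITGB8. The 6 h arrays stand in both comparisons, so the opposite signs of ITGA9 and of ITGB8 are not independent of each other.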

How the results depend on the processing

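Called differences kept their sign under all 20 alternatives with a test. ITGA9 was called in 14 from 1 h to 6 h (-1.17 to -0.64) and in 19 from 6 h to 24 h (0.85 to 1.63). ITGB8 was called in 16 from 1 h to 6 h (0.82 to 2.12) and in 14 from 6 h to 24 h (-1.52 to -0.62), and ITGB5 in 6 (0.48 to 0.77). The largest ITGA9 and ITGB8 values came from the value table, which also moved the median of all probes at 6 h against untreated cells from 0.01 to 0.16 and at 6 h against 1 h from -0.01 to 0.13.

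At 6 h against untreated cells 0 subunits were called, and 1, ITGA9, with normexp background correction, median centring, detection required on both arrays of a group, or a block for low-score and high-score arrays (adjusted p = 0.0483, 0.042, 0.036 and 0.0107). With the replicate number as a block it was also 1 (ITGA9, adjusted p = 0.00715), and this block changed no other call of a subunit. Deviations of same-numbered arrays correlated from -0.06 to 0.66 between groups, above 0.1 in 8 of 10 pairs of groups, and no label says what a shared number means, so the reported test has no such block. Leaving out 1 array gave 0 to 1. From 1 h to 6 h the count of 2 became 1 with the value table (ITGB8), 0 with a pooled variance without moderation, and 0 to 2 with 1 array left out. From 6 h to 24 h the count of 3 became 1 with the value table (ITGA9), 0 with the pooled variance, 1 with only the groups compared in the fit (ITGA9), and 1 to 3 with 1 array left out. The cause was not tested. Over all probes the 267 calls at 6 h against untreated cells (136 higher) became 246 (42 higher) with median centring, 468 (321 higher) with the value table, 407 with detection on both arrays, 59 in the groups alone, 0 with the pooled variance, 1089 with the replicate block and 1066 with the array block. The 654 calls at 6 h against 1 h (314 higher) became 686 (158 higher) with median centring, 601 (377 higher) with the value table, 337 with the floor, 0, 1871 and 1690 with the pooled variance and the 2 blocks, and the 1165 at 24 h against 6 h (594 higher) became 934 (613 higher), 1190 (469 higher), 483 in the groups alone, and 107, 2245 and 2163. At 1 h the 0 calls became 427 with the replicate block and 283 in the groups alone, and at 24 h against 1 h 4 and 20. With 1 array left out the counts were 0 to 36, 0 to 509, 0 to 1062 and 308 to 1065 at 1 h and 6 h against untreated cells, 6 h against 1 h and 24 h against 6 h.

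ITGA1 and ITGAV lay near the detection limit (normalised signal 89.6), which limits what these arrays resolve for them. ITGA2 was near the limit at 1 h (90.68 and 103.02) and at 24 h (102.17 and 97.68). The low ends of the called ITGA9 and ITGB8 differences were also not far above the limit. ITGA9 read 109 and 121 at 6 h, and ITGB8 98 and 112 at 1 h and 130 and 104 at 24 h. ITGB8 at 6 h against 1 h was log2 0.92 on these signals, which are not background subtracted, and 2.12 on the background-subtracted value table.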
